A study of Mus musculus with 10 samples.

Results

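The synaptic vesicle fusion genes of the mouse hippocampus were taken by name from the array annotation: synaptotagmins (Syt), synapsins (Syn), syntaxins (Stx), syntaxin-binding proteins (Stxbp), vesicle-associated membrane proteins (Vamp), complexins (Cplx), the Rab3 GTPases, the SV2 proteins and the SNAP family with Snap91. The names gave 61 genes, and 57 of them were bright enough to be tested, among 13225 genes tested in all. Each gene was read from its brightest probe set, and a gene was kept where the mean of log2(signal + 22) over the 10 arrays was above 6.47. Stx11 at 6.48 and Syt6 at 6.49 lay just inside that limit, while Vamp5 at 6.29, Cplx4 at 5.61, Stx19 at 5.38 and Sv2c at 5.33 lay outside it.

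Each array held hippocampal RNA pooled from 3 to 4 mice of 3 weeks of age. Wild-type mice (C57BL6 F1/J) received saline or kainate at 14 mg/kg, and A-CREB mice (TetO-A-CREB-95 C57BL6 F1/J) received saline or kainate at 14 or 18 mg/kg, with 2 arrays in each of the 5 groups, from 14 wild-type and 20 A-CREB mice in all. Of the wild-type arrays, number 1 of the kainate group and number 2 of the saline group carry the genotype in their title alone, with no strain. Kainate is an agonist of glutamate receptors that triggers seizures, and A-CREB is a dominant-negative protein that binds CREB and keeps it off DNA, so the comparisons ask what seizure activity and the loss of CREB binding do to gene expression. TetO names a promoter that needs a second, driver transgene, and that driver, the transgene's own level and the time from injection to dissection are not given or measured in the sources used here.

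Synaptic vesicles fuse when the vesicle SNARE synaptobrevin (the Vamp genes) zips together with syntaxin and SNAP-25 of the plasma membrane. Synaptotagmins sense the calcium that triggers the last step, complexins clamp and promote it, and the Munc18 and tomosyn types of syntaxin-binding protein open or block the way to it. Rab3 GTPases and synapsins bring vesicles to the membrane or hold them in reserve. In hippocampal neurons this machinery sets how much glutamate or GABA an action potential releases.

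CREB binds the cAMP response element (CRE), TGACGTCA, and also its shorter core, TGACG. The 250 bases before the annotated gene start were searched for both on both strands, and a full CRE was counted among the cores too. RefSeq promoters (GRCm38.p6) were found for 46 of the 57 genes. A full CRE stood in 2 of the 46 genes, Syn1 and Stxbp3, and in 3.23% of their 62 promoter windows, against 1.55% of all 32851 windows. The core stood in 13 of the 46 genes and in 21.0% of their windows, against 17.8% of all windows. The promoters with a full CRE are shown because A-CREB acts on CREB, and those of Rab3d and Stxbp6 because these genes led the kainate and the genotype comparison. Each is written 5′ to 3′ on the strand of the gene, with matches in capitals.
Syn1, chrX:20920919-20921168, minus strand: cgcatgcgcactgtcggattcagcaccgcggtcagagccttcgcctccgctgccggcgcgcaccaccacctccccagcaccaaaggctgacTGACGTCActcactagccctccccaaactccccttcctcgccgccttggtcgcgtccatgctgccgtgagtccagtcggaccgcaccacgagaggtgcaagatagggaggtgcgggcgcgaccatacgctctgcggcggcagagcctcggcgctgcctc
Stxbp3, chr3:108840503-108840752, minus strand: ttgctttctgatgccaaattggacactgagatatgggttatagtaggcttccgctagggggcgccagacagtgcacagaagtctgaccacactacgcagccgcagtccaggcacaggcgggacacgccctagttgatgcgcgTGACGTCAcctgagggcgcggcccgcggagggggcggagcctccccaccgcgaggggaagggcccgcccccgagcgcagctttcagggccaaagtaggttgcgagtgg
Rab3d, chr9:21918184-21918433, minus strand: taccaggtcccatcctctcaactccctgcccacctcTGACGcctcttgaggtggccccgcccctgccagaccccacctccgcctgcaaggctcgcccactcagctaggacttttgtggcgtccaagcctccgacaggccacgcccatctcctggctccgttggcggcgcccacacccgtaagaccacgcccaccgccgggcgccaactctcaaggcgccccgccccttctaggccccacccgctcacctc
Stxbp6, chr12:45074484-45074733, minus strand: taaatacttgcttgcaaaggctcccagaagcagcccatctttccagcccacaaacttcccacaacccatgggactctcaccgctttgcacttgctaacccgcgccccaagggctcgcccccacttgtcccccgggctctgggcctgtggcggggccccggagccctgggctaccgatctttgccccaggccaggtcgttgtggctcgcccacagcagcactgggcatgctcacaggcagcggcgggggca
The CRE begins 159 bases before the start of Syn1 and 108 bases before that of Stxbp3. The promoter of Rab3d holds 1 core, 214 bases before its start, and that of Stxbp6 holds neither motif in this window.

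As a check of the treatment, 4 of 4 activity-regulated genes rose with kainate at 14 mg/kg (limma, mean of both genotypes). Fos rose by 3.39 on the log2 scale (adjusted p = 8.87e-06) and Npas4 by 5.93 (adjusted p = 5.06e-07). Creb1 RNA differed by 0.09 between the genotypes on the log2 scale. That value is no check of A-CREB, which acts on the CREB protein. Of 8 hippocampal principal cell markers 7 were measured, and their summed signal ran from 10926 to 14194 over the 10 arrays. The summed signal of 5 measured striatal markers, of 7 listed, was 8552 on wild-type kainate array number 2 and 1791 to 3574 on the other 9, so that this array stands apart and results are also given without it. Arrays carry the number 1 or 2 within their group, and 34.9% of all genes differed between the numbers. A second fit therefore takes the number as a term, called the replicate block here, and both fits are quoted where they part. Fold changes are on the log2(signal + 22) scale, which understates the change of dim genes. With pools of hippocampal tissue, fewer cells of a type and less RNA per cell cannot be told apart.

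Between kainate at 14 mg/kg and saline most fusion genes differed little. Over both genotypes, the median difference of the 57 genes was 0.01 on the log2 scale, against -0.04 for all genes tested, and 29 of them were higher and 28 lower. Their differences ran from -0.68 to 0.45, with an SD of 0.21 against 0.29 for all genes. The median size of a difference, without its sign, was 0.13 against 0.14 for all genes. A difference of over 0.5 in size was seen in 1 of the 57 genes, and in 5.47% of all genes. With limma 0 of the 57 genes passed an adjusted p of 0.05, where 0.696% of all genes did, and 1 gene had an unadjusted p under 0.05 against 7.33% of all genes. With the replicate block 1 gene passed, Rab3d, where 2.87% of all genes passed and 0.968% passed as lower, and 8 of the 57 genes had an unadjusted p under 0.05 against 16.3% of all genes. A 95% interval from the blocked fit lay within 1 log2 unit of 0 in all 57 genes, and without the block in 50 of them. The median was -0.03 without the wild-type kainate array that stood apart. The summed signal of the 7 measured principal cell markers ran from 12026 to 13797 after saline and from 12204 to 12426 after kainate in wild type. In A-CREB it ran from 13312 to 14194 after saline and from 10926 to 11787 at 14 mg/kg, with 0 of the 7 past the threshold for kainate in either fit, and its part in the differences was not tested.

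**Figure D1:**
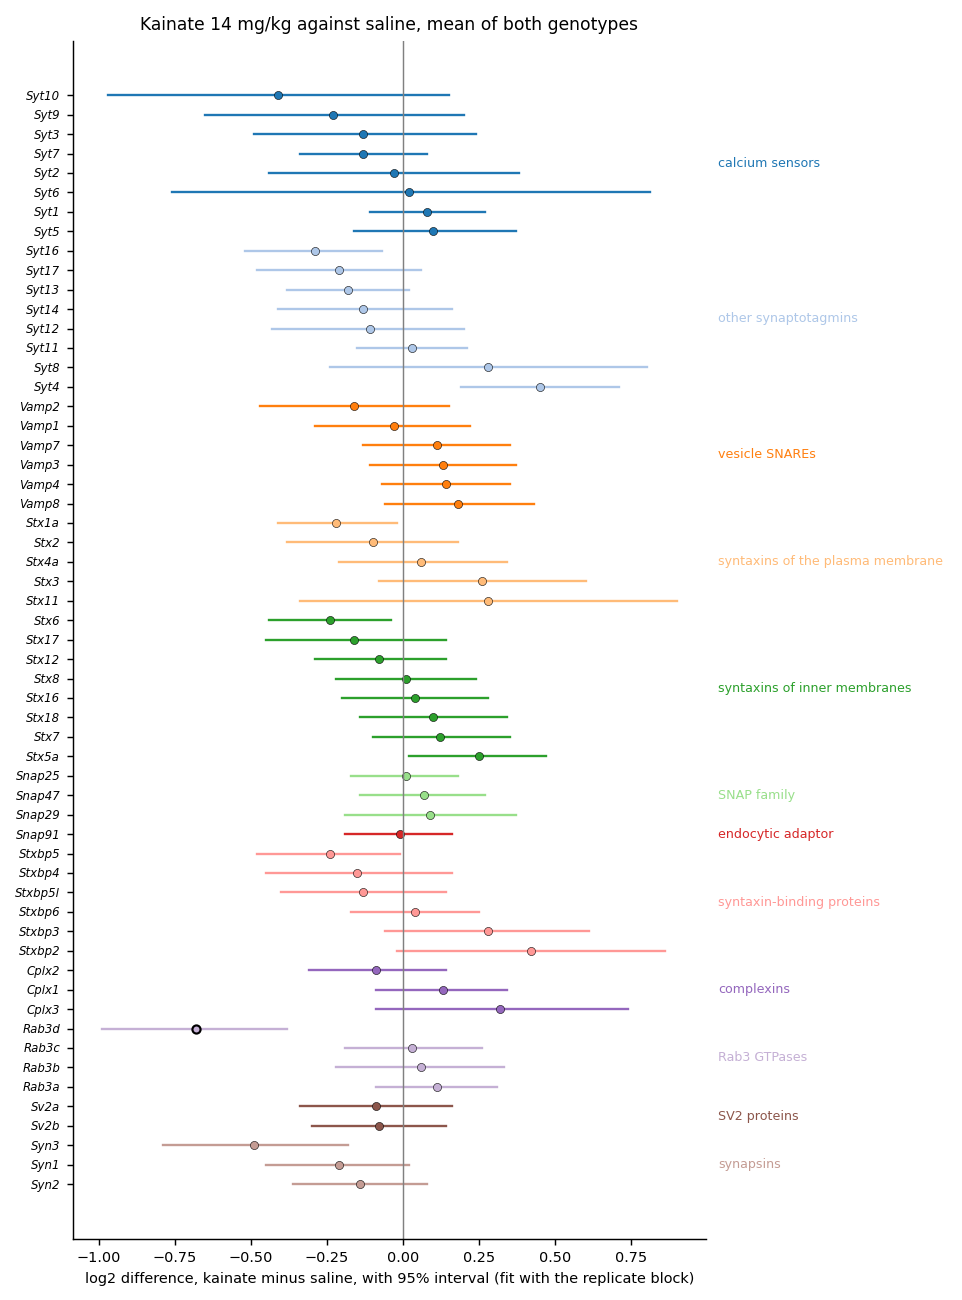
Log2 difference of each of the 57 fusion genes between kainate at 14 mg/kg and saline, as the mean of both genotypes (points), with the 95% interval of the fit with the replicate block (bars), grouped by role. Rab3d, circled in bold, is the gene that passed the adjusted p in that fit, at -0.68, and the other points lie between -0.49 and 0.45.

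The core genes of the fusion complex showed small differences, whose bounds were closer with the replicate block than without it. Snap25, the plasma membrane SNARE, read 20142 and 20400 in the wild-type saline arrays and 21644 and 20024 after kainate, and 23674 and 20286 against 21861 and 21331 in A-CREB. These values overlap in both genotypes, and the mean difference was 0.01, with a blocked 95% interval from -0.17 to 0.18. Syt1, the main fast calcium sensor, differed by 0.08 (interval -0.11 to 0.27), and Vamp2, the main synaptobrevin, by -0.16 (interval -0.47 to 0.15, or -0.56 to 0.24 without the block). Vamp2 differed by 0.06 without A-CREB saline array 1 and by -0.37 without A-CREB saline array 2. The interval of Vamp1, its close relative, ran from -0.29 to 0.22, or from -0.62 to 0.55 without the block. The main complexins of the brain, Cplx1 at 0.13 and Cplx2 at -0.09, had intervals of -0.09 to 0.34 and -0.31 to 0.14. Rab3a, the most studied Rab3 of synapses, differed by 0.11 (interval -0.09 to 0.31). The vesicle glycoproteins Sv2a and Sv2b differed by -0.09 and -0.08, with intervals from -0.34 to 0.16 and from -0.30 to 0.14. The 13 core genes measured were these with Stx1a, Syn1, Syn2 and Syt4, described next. At the brightest probe set, their blocked interval lay within 0.5 log2 units of 0 for 12 of the 13, and Syt4 was the exception. Without the block this held for 9 of the 13, the others being Syt4, Vamp1, Vamp2 and Syn1, and the bounds ran from -0.87 for Syn1 to 1.1 for Syt4.

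Rab3d, a Rab3 GTPase known from secretory granules, had the largest difference of the 57 genes. Its signal was 454 and 480 in the wild-type saline arrays and 320 and 312 after kainate at 14 mg/kg. In A-CREB it was 547 and 451 after saline, 258 and 280 after 14 mg/kg, and 323 and 465 after 18 mg/kg. All 4 arrays of the 14 mg/kg groups lay below all 4 saline arrays, which held as a fall for 3.49% of all genes, whereas at 18 mg/kg array number 2 lay among the saline arrays. The mean fall at 14 mg/kg was 1.61-fold, or -0.68 on the log2 scale (SE 0.16, 2 arrays a group). Its adjusted p was 0.132 in limma and 0.018 with the replicate block, and the pairs of arrays numbered 1 and 2 gave -0.75 and -0.62. By genotype the difference was -0.53 in wild type (SE 0.22, adjusted p = 1, blocked 0.382) and -0.84 in A-CREB (SE 0.22, adjusted p = 0.372, blocked 0.0658). The blocked call was lost without either wild-type saline array (adjusted p 0.0717 and 0.0836 for numbers 1 and 2), wild-type kainate array 2 (0.0578, difference -0.65), A-CREB saline array 1 (0.085) or either A-CREB array at 14 mg/kg (0.0936 and 0.0786). Of its 4 probe sets the 3 tested gave -0.68, -0.54 and -0.37, and the blocked call was also lost over the mean of those probe sets (adjusted p = 0.0769) and without probe sets of the _a_at kind, to which its brightest belongs (-0.37, adjusted p = 0.491), with no filter (0.0572) and with no intensity trend (0.0553).

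The other 4 fusion genes with the smallest p among those lower after kainate did not pass in either fit. Stx6, a SNARE of the trans-Golgi network and endosomes, read 3697 and 3220 after saline and 3204 and 2762 after kainate in wild type. In A-CREB its signals were 3241 and 3337 after saline, 2825 and 2661 at 14 mg/kg and 2858 and 2842 at 18 mg/kg. Here all 6 kainate arrays lay below all 4 saline arrays, as they did for 1.79% of all genes, and the difference was -0.24 (SE 0.11, adjusted p = 0.707, blocked 0.217), or -0.18 without the wild-type array that stood apart. Its 5 tested probe sets ran from -0.24 to 0.25.

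Syn3, the synapsin of young neurons, read 824 and 856 in the wild-type saline arrays and 439 and 659 after kainate. In A-CREB it read 641 and 773 after saline, 393 and 761 at 14 mg/kg, and 532 and 821 at 18 mg/kg. The wild-type groups, of 2 arrays each, do not overlap and the A-CREB groups do. How many of all genes split in this way was not counted. The mean difference was -0.49 (SE 0.23, adjusted p = 0.721, blocked 0.0882), and it was -0.78 between arrays numbered 1 and -0.19 between those numbered 2. Without the wild-type array that stood apart it was -0.63, and it was -0.26 and -0.71 without A-CREB 14 mg/kg arrays 1 and 2. The neighbouring synapsins, which tether vesicles to actin, differed by -0.21 for Syn1 (blocked interval -0.45 to 0.02, unblocked -0.87 to 0.45) and by -0.14 for Syn2 (blocked interval -0.36 to 0.08). Syn1 differed by 0.08 without A-CREB saline array 1 and by -0.51 without A-CREB saline array 2.

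Stx1a, the syntaxin of the fusion complex, read 4553 and 4716 after saline and 3511 and 3296 after kainate in wild type. In A-CREB it read 3692 and 3769 after saline, 3777 and 3738 at 14 mg/kg, and 3858 and 4506 at 18 mg/kg. The wild-type kainate arrays were thus below the saline arrays by 0.44 on the log2 scale, while the A-CREB difference was 0.01. A second probe set gave -0.43 in wild type and -0.16 in A-CREB. The share of all genes with such a split between 2 and 2 wild-type arrays was not counted. The wild-type difference had an adjusted p of 1 in limma and 0.214 with the block, and the difference between the genotypes' responses, 0.45 (SE 0.21), had an adjusted p of 1 in both fits. Without the wild-type kainate array that stood apart the wild-type difference was -0.40. The mean over both genotypes was -0.22 (adjusted p = 0.739, blocked 0.252). Stxbp5, the tomosyn that competes with synaptobrevin for syntaxin, differed by -0.24 (adjusted p = 0.765, blocked 0.295).

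Among genes higher after kainate, the 5 with the smallest p also missed the threshold. Syt4, a synaptotagmin of dense-core vesicles known to be induced by activity, read 2484 and 3347 after saline and 3151 and 4262 after kainate in wild type. In A-CREB its signals were 2323 and 3544 after saline, 3083 and 5874 at 14 mg/kg and 2584 and 5709 at 18 mg/kg. Array number 2 was the higher of every pair, and within each number the kainate array was above the saline array in both genotypes. The difference at 14 mg/kg was 0.45 (SE 0.29, adjusted p = 0.875), and with the block its SE was 0.12 and its adjusted p 0.0639. Without the wild-type array that stood apart the difference was 0.35, and it was 0.69 and 0.22 without A-CREB 14 mg/kg arrays 1 and 2. A second probe set of Syt4 gave 0.81, and on it number 1 was the higher array in wild type (1706 against 781 after saline, 2584 against 1938 after kainate), unlike the first. Stxbp2, a Munc18 of secretory cells, differed by 0.42 (adjusted p = 0.874, blocked 0.339), with other tested probe sets at -0.15 and 0.22. It was 0.67 and 0.17 without A-CREB saline arrays 1 and 2.

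Cplx3, a complexin of ribbon synapses, differed by 0.32 over both genotypes (SE 0.23, adjusted p = 0.907). Its signal in A-CREB was 205 and 234 after saline, 581 and 250 at 14 mg/kg and 355 and 358 at 18 mg/kg, against 338, 371, 357 and 303 in the 4 wild-type arrays. A-CREB array number 1 at 14 mg/kg was thus far above the others, and the pairs numbered 1 and 2 gave 0.74 and -0.09. The difference was 0.04 without that array and 0.61 without array 2 of its group. Stx5a, a Golgi syntaxin, differed by 0.25 (adjusted p = 0.787, blocked 0.265), with 0.19 at its second probe set, and Vamp8, a SNARE of endosomes and secretory granules, by 0.18 (adjusted p = 0.887, blocked 0.458).

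**Figure D2:**
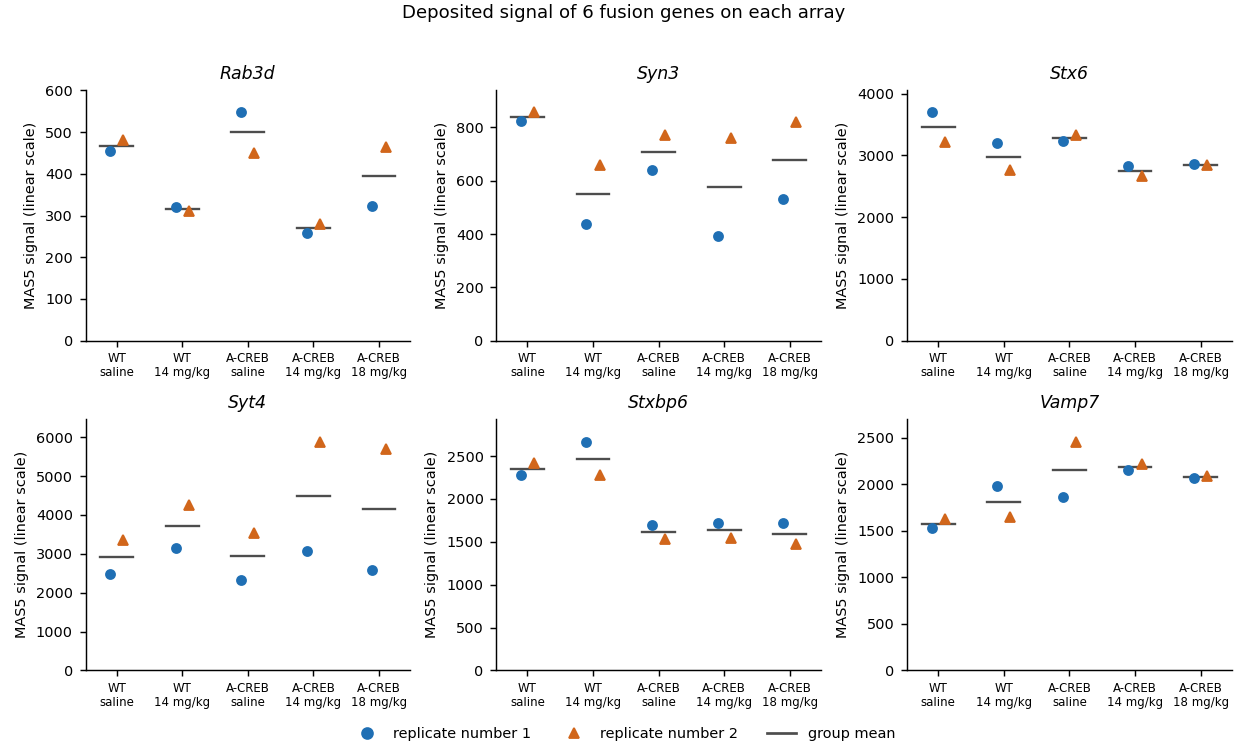
Deposited signal on a linear scale of 6 fusion genes in the 5 groups, with circles for arrays numbered 1, triangles for those numbered 2 and a line at the group mean of 2 arrays. Rab3d is lower in all 4 arrays at 14 mg/kg (258 to 320) than after saline (451 to 547), and Stxbp6 is lower in all 6 A-CREB arrays (1470 to 1719) than in the 4 wild-type arrays (2273 to 2662).

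By role, the 8 synaptotagmins that act as calcium sensors had a median difference of -0.08 after kainate, with a range of -0.41 to 0.10, and 0 passed in either fit. The 8 other synaptotagmins had a median of -0.12 and a range of -0.29 to 0.45. The 6 measured vesicle SNAREs ran from -0.16 to 0.18, the 5 syntaxins of the plasma membrane from -0.22 to 0.28, and the 8 of inner membranes from -0.24 to 0.25. The 3 members of the SNAP family had differences of 0.01 to 0.09, and Snap91, the clathrin adaptor AP180, differed by -0.01. The 6 syntaxin-binding proteins ran from -0.24 to 0.42 and the 3 complexins from -0.09 to 0.32. In none of these roles did a gene pass in either fit.

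Taken one genotype and dose at a time, 0 of the 57 genes passed in any kainate comparison, with or without the block. In wild type at 14 mg/kg the median difference was -0.07 (all genes -0.05), and 0.181% of all genes passed the adjusted p (0.711% with the block). An unadjusted p under 0.05 was found there for 2 of the 57 genes (4 with the block), against 3.52% of all genes (9.75% with the block). In A-CREB at 14 mg/kg the median was 0.01 (all genes -0.02), and 0.31% of all genes passed (1.26% with the block). Here 3 genes had an unadjusted p under 0.05 (4 with the block), against 5% of all genes (11.8% with the block). At 18 mg/kg in A-CREB the median was -0.04 (all genes 0), and 0.234% of all genes passed (0.696% with the block). At that dose 0 genes had an unadjusted p under 0.05 and 5 did with the block, against 2.79% and 8.95% of all genes. These comparisons share their saline arrays within a genotype. The 13 core genes ran from -0.44 to 0.34 in wild type, from -0.28 to 0.57 in A-CREB at 14 mg/kg and from -0.38 to 0.42 at 18 mg/kg.

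Differences between the genotypes' responses, and between the doses, passed the threshold for no fusion gene. The response at 14 mg/kg differed between A-CREB and wild type by a median of 0.01 (all genes 0.01), with a range of -0.50 to 0.85, and 0 of the 57 genes and 0% of all genes passed. Without the block 0 fusion genes had an unadjusted p under 0.05, against 0.726% of all genes, and with it 3 did, against 3.58%. The widest difference was that of Cplx3, at 0.85 (SE 0.46). Its A-CREB response was 1.41 between arrays numbered 1 and 0.09 between those numbered 2. Between 18 and 14 mg/kg in A-CREB the median was -0.01 (all genes 0.02) and again 0 of the 57 genes passed, against 0% of all genes. The gene with an unadjusted p under 0.05, in both fits and against 0.567% of all genes (3.02% with the block), was Rab3d, 0.50 higher at 18 mg/kg than at 14 mg/kg (SE 0.22, unadjusted p = 0.0499, adjusted p = 1).

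Between A-CREB and wild type the differences of most fusion genes were small. Averaged over saline and 14 mg/kg, the median difference of the 57 genes was -0.03, against -0.02 for all genes, with 22 higher and 35 lower. The range was -0.56 to 0.50, and 1 gene, against 2.15% of all genes, differed by over 0.5. The median size of a difference, without its sign, was 0.1 against 0.11 for all genes. The blocked 95% interval lay within 1 log2 unit of 0 in 56 of the 57 genes, and the unblocked in 54. With limma 0 of the 57 genes passed, where 0% of all genes did, and 2 of the 57 had an unadjusted p under 0.05 against 2.03% of all genes. With the block 0 passed, where 0.0302% of all genes did, and 4 had an unadjusted p under 0.05 against 6.58%. After saline alone the median was -0.07 (all genes -0.03; -0.12 without wild-type saline array 1 and -0.04 without A-CREB saline array 2), again with 0 of the 57 genes and 0% of all genes past the threshold in either fit. There 2 genes had an unadjusted p under 0.05 and 7 did with the block, against 1.47% and 5.6% of all genes. In the 13 core genes the blocked interval of the mean genotype difference lay within 0.5 log2 units of 0 in each, and the bounds ran from -0.46 to 0.39. Without the block this held for 8 of the 13, and the bounds ran from -0.78 for Syn1 to 0.75 for Syt4. Both sets of bounds are for the brightest probe set of each gene. Other tested probe sets of Syt1 gave 0.33, 0.46 and 0.05, against -0.05 at the brightest, and another of Vamp2 gave 0.37, against -0.15. Over all tested probe sets of the 13 genes this difference ran from -0.24 for Syn2 to 0.46 for Syt1.

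**Figure D3:**
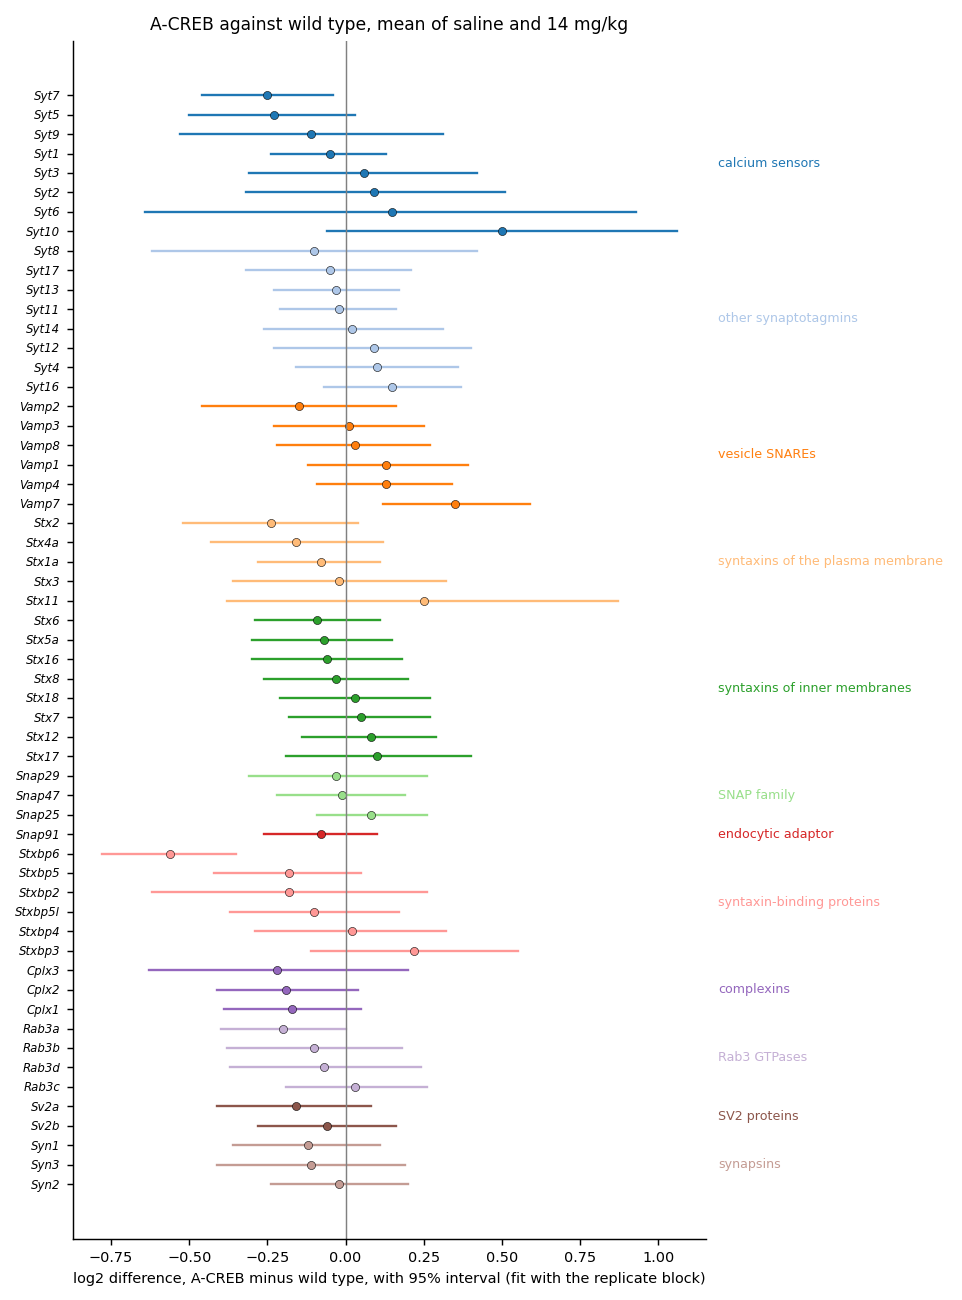
Log2 difference of each of the 57 fusion genes between A-CREB and wild type, as the mean of saline and 14 mg/kg (points), with the 95% interval of the fit with the replicate block (bars), grouped by role. Stxbp6 at -0.56 and Syt10 at 0.50 are the outermost points, and none passed the adjusted p.

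Stxbp6, also called amisyn, carries a SNARE motif with which it binds syntaxin and SNAP-25 in place of synaptobrevin, and it had the largest genotype difference. The wild-type signals were 2280 and 2418 after saline and 2662 and 2273 after kainate. The A-CREB signals were 1690 and 1530 after saline, 1715 and 1548 at 14 mg/kg, and 1719 and 1470 at 18 mg/kg. Every A-CREB array lay below every wild-type array, and over the 4 arrays of each genotype at matched treatments this held as a fall for 0.915% of all genes. The mean difference was -0.56 on the log2 scale, 1.48-fold lower (SE 0.12, adjusted p = 1, blocked 0.071), and -0.53 and -0.60 within numbers 1 and 2. Without the wild-type kainate array that stood apart it was -0.62. Between kainate at 14 mg/kg and saline Stxbp6 differed by 0.07 in wild type and 0.02 in A-CREB. A second, dimmer probe set of Stxbp6 gave a genotype difference of -0.06, so the probe sets of this gene disagree. The summed signal of 7 of 7 microglia markers ran from 10895 to 12424 in the wild-type arrays and from 12637 to 18192 in the A-CREB arrays, with 0 of them past the threshold even with the block, and its part in genotype differences was not tested.

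Vamp7, the tetanus-insensitive SNARE of neurite outgrowth and endolysosomes, was the other gene with an unadjusted p under 0.05 in the mean genotype comparison without the block. In limma with the block, Syt7 (-0.25, unadjusted p = 0.0251) and Rab3a (-0.20, unadjusted p = 0.0494) were under 0.05 too. Vamp7 read 1527 and 1623 after saline and 1976 and 1645 after kainate in wild type, and in A-CREB 1859 and 2452 after saline, 2157 and 2217 at 14 mg/kg and 2071 and 2089 at 18 mg/kg. One wild-type kainate array lay among the A-CREB arrays. The difference was 0.35 (SE 0.13, adjusted p = 1, blocked 0.568), and a second probe set gave 0.51. It was 0.29 without the wild-type kainate array that stood apart.

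The other genes with the smallest p in the genotype comparison had an adjusted p of 1. On the lower side were Stx2, a plasma membrane syntaxin, at -0.24, Rab3a at -0.20, Stxbp5 at -0.18 and Cplx1 at -0.17. On the higher side were Syt10, a synaptotagmin of growth factor secretion, at 0.50 (SE 0.42), Stxbp3, the Munc18c of surface vesicle traffic, at 0.22, Syt16 at 0.15 and Vamp4, a SNARE of the trans-Golgi network, at 0.13. Without the wild-type kainate array that stood apart the last 4 were 0.94, 0.10, 0.03 and 0.05, in the same order. Syt10 was 0.06 without wild-type kainate array 1, which read 23.8 against 93.7 to 132 on the other wild-type arrays. Over single arrays left out, Rab3a ran from -0.31 to -0.09, Cplx1 from -0.26 to -0.09, Stxbp3 from 0.10 to 0.33, Syt16 from 0.03 to 0.27 and Vamp4 from 0.02 to 0.23. Syn1 and Stxbp3, the genes with a full CRE in the window searched for 46 of the 57, differed by -0.12 and 0.22. Their blocked intervals were -0.36 to 0.11 and -0.11 to 0.55, and the unblocked -0.78 to 0.54 and -0.25 to 0.68.

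**Figure D4:**
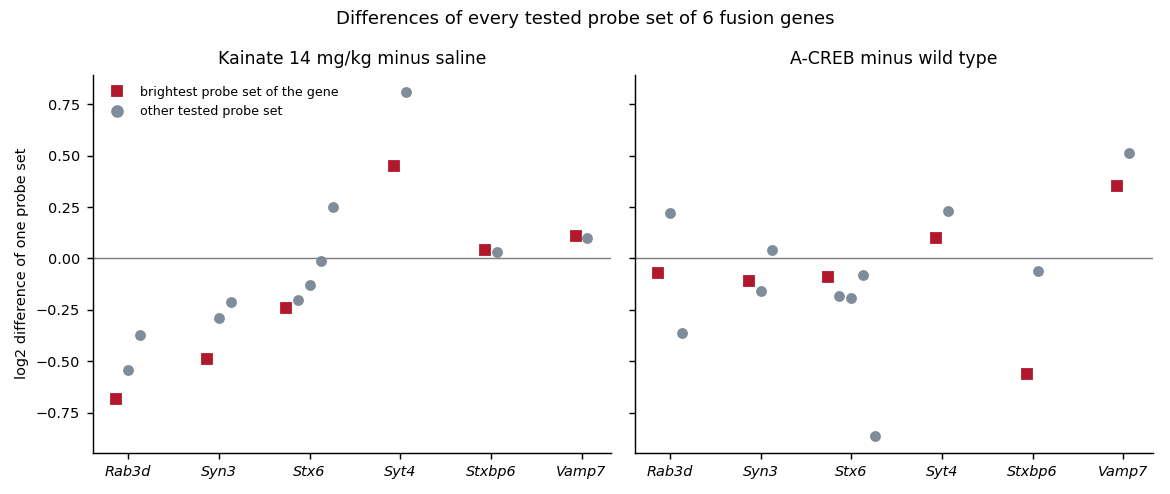
Log2 difference at each tested probe set of 6 fusion genes for kainate at 14 mg/kg against saline (left) and A-CREB against wild type (right), with squares for the brightest probe set of a gene, used in the tests, and circles for the others. The 3 probe sets of Rab3d lie below 0 for kainate (-0.68 to -0.37), while those of Stxbp6 read -0.56 and -0.06 for genotype.

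Many fusion genes have several probe sets, and these did not always run one way. Of the 57 genes 37 had more than 1 tested probe set, and in 16 of the 37 the kainate differences at 14 mg/kg had mixed signs. Mixed signs were not counted for genotype. In all, 128 of the 141 probe sets of these genes were bright enough to be tested.

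Differences between the replicate numbers were not particular to the fusion genes. Of the 57 fusion genes 17 differed between arrays numbered 2 and 1 in the blocked fit (limma, adjusted p under 0.05), 7 higher and 10 lower on number 2, against 34.9% of all genes. Syn1 was lower on number 2 by -0.74 (SE 0.10, adjusted p = 0.00017), from 8319 to 6061 in the wild-type saline pair and from 9901 to 4327 in the A-CREB saline pair. Syt4 was higher by 0.71 (SE 0.11, adjusted p = 0.000412). Vamp1 at -0.63, Stx4a at -0.65, Syt7 at -0.47 and Syt14 at 0.60 followed, and the dim Stx11 and Syt6 reached 1.15 and 1.09. The labels are silent on what these numbers stand for.

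**Figure D5:**
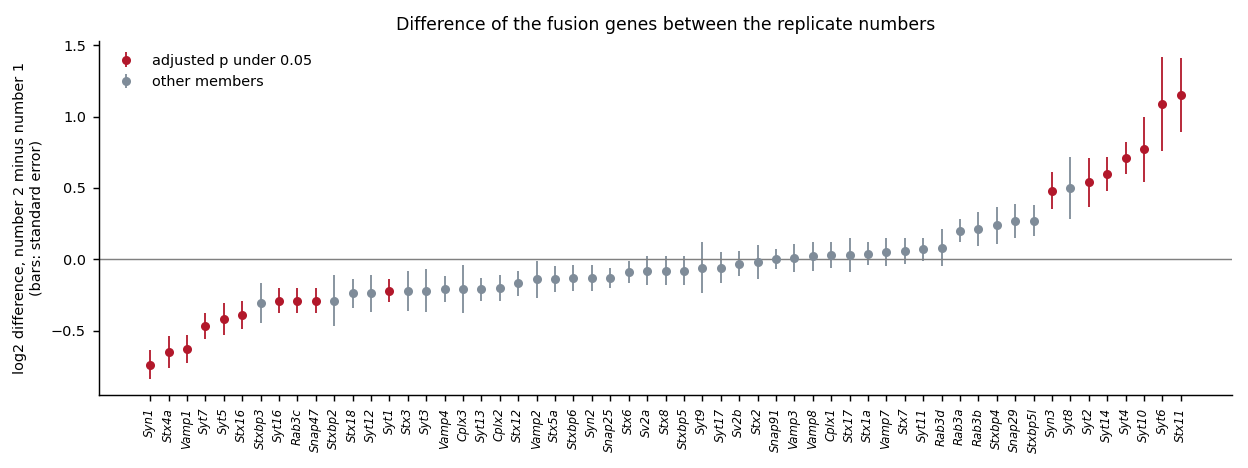
Log2 difference between arrays numbered 2 and 1 for each of the 57 fusion genes, with standard errors (bars). The 17 genes with an adjusted p under 0.05, in red, run from Syn1 at -0.74 to Stx11 at 1.15.

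The other genes of release were followed as a list of 55 covering the active zone, priming, disassembly, vesicle proteins, transporters and retrieval, of which 54 were measured. Without the block 0 of the 54 passed in any of the 8 comparisons. With the block 2 passed as lower after kainate at 14 mg/kg (0.968% of all genes did so) and 1 as lower in A-CREB (0.0151% of all genes). The list was chosen with earlier results of these data known, so these shares do not test it. The list's median difference was -0.07 after kainate and -0.06 for A-CREB.

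Unc13b, of the Munc13 family that primes vesicles, read 443 and 601 after saline and 243 and 364 after kainate in wild type. In A-CREB it read 460 and 441 after saline, 278 and 391 at 14 mg/kg, and 304 and 452 at 18 mg/kg. All arrays at 14 mg/kg lay below all saline arrays, as they did for 3.49% of all genes, while at 18 mg/kg 1 array did not. The fall was -0.59 (SE 0.20, adjusted p = 0.457, blocked 0.0337). The blocked call was lost on leaving out any array of the saline and 14 mg/kg groups other than A-CREB saline array 2, with adjusted p from 0.0527 to 0.156. It was also lost with quantile normalization (0.0688), median centring (0.055), no filter (0.0951) and no intensity trend (0.0781). Of the same family, Unc13a differed by -0.05 and Unc13c by 0.29 in this comparison (limma with the block, adjusted p 0.896 and 0.399).

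Rimbp2, which links the active zone to calcium channels, read 912 and 874 after saline and 590 and 390 after kainate in wild type. In A-CREB it read 817 and 477 after saline, 474 and 473 at 14 mg/kg, and 544 and 396 at 18 mg/kg, so that its groups overlap at A-CREB saline array number 2. The difference was -0.62 (SE 0.20, adjusted p = 0.419, blocked 0.0269). Its blocked call was lost without wild-type saline array 2 (adjusted p = 0.166), wild-type kainate array 2 (0.0875), A-CREB saline array 1 (0.112) or A-CREB array 1 at 14 mg/kg (0.175). It was lost as well with quantile normalization (0.0687), no filter (0.073) and no intensity trend (0.0943).

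Doc2b, a calcium sensor of spontaneous and asynchronous release, was the release gene that passed in the mean genotype comparison. It read 1004 and 1308 after saline and 1447 and 1342 after kainate in wild type, and in A-CREB 776 and 698 after saline, 546 and 639 at 14 mg/kg and 653 and 719 at 18 mg/kg. All 6 A-CREB arrays lay below all 4 wild-type arrays. Over the 4 arrays of each genotype at matched treatments such a fall held for 0.915% of all genes. The difference was -0.92 (SE 0.13, adjusted p = 0.687, blocked 0.015), and its second probe set gave -0.70. The blocked adjusted p was 0.0334 without the wild-type kainate array that carried the striatal markers. It missed the threshold without wild-type saline array 2 (adjusted p = 0.181), A-CREB saline array 2 (0.051) or either A-CREB array at 14 mg/kg (0.167 and 0.0603 for numbers 1 and 2). It also missed it over the mean of probe sets (0.214), with no intensity trend (0.176) and with no filter (0.0639). After saline alone the genotype difference of Doc2b was -0.62 (SE 0.19, limma with the block, adjusted p = 0.684) and did not pass. Between kainate at 14 mg/kg and saline Doc2b differed by 0.28 in wild type and by -0.31 in A-CREB.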

How the data were processed

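For 10 Affymetrix Mouse430_2 arrays, the authors deposited intensity on a linear scale, 1 MAS5 signal per probe set. MAS5 and GCOS are named, without versions, in the submitters' processing notes. Each array's 2% trimmed mean was 500, so the deposited values had been scaled alike. Of 45101 probe sets 64 were controls, 34945 named 1 gene, 932 several and 9160 none. Signals were taken as log2(signal + 22), 22 being the 20th percentile, and genes above the limit entered one limma fit (version 3.58.1, R 4.3.3, moderated with an intensity trend) over all 10 arrays (5 residual degrees of freedom, 4 with the replicate block). Tests were two-sided, with Benjamini-Hochberg adjustment over 13225 genes in each of 8 comparisons and a threshold of 0.05. The procedure was tested on simulated data.

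Same-numbered arrays deviated together: the correlation of deviations was 0.517 to 0.641 over 10 pairs of groups, the best correlate of each of the 10 arrays carried its own number, and the first principal component (46.0% of the variance) separated the numbers. The pairing comes from this check, since the labels leave the meaning of the numbers open. Array medians were 94.9 to 106 for number 1 and 135 to 152 for number 2. Each array is a pool, so p-values measure the spread between pools, which 2 arrays a group limit.

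Named with values were genes past the threshold in either fit, the 5 lower and 5 higher genes of smallest p in each mean comparison, and 13 measured core genes; other genes of interest were chosen after their values were seen. The members and lists were chosen with earlier results of these data known. Marker lists covered 10 cell types or regions besides 4 activity-regulated genes; in the mean kainate comparison 1 pan-neuronal and 1 endothelial marker passed with the block, and 1 hippocampal principal cell marker in the genotype comparison, and 0 of the interneuron, astrocyte, oligodendrocyte, microglia, choroid plexus, thalamus and striatum lists. Alternatives were other pseudocounts, filters, normalizations, probe set rules and variance models, the block, and each array left out in turn; those that combine the block with another change were chosen after seeing the data.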

Additional observations from a re-analysis of the deposited data

How the results depend on the processing

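The count of fusion genes past the threshold without the block stayed 0 under every alternative without the block; the one change came with it: in the mean kainate comparison it was 1 (Rab3d) with the replicate block, which changed no other count of fusion genes. Added to the block, the count of that comparison was 0 with no filter, without the _s_at, _x_at and _a_at probe sets and with no intensity trend, and 2 (Rab3d and Syt4) with the upper 40% of probe sets, median centring or only the groups compared; for A-CREB at 14 mg/kg the last setting also gave 2. Leaving out single arrays with the block gave 0 to 2 in the mean comparison and in A-CREB at 14 mg/kg, and 0 to 1 at 18 mg/kg.

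The median of the fusion genes moved with several settings. For A-CREB at 14 mg/kg it was -0.02 with quantile normalization, 0.07 with median centring and -0.04 with the mean of probe sets or without _s_at, _x_at and _a_at sets. For the mean kainate comparison it was -0.01 with a smaller pseudocount or the upper 40%, -0.05 with quantile normalization or without those sets, 0.07 with median centring and -0.04 with the mean of probe sets. It was 0 for wild type with median centring and -0.01 for basal A-CREB with the mean of probe sets. Leaving out each array gave medians of -0.07 to 0.02 in wild type, 0 to 0.06 in A-CREB at 14 mg/kg, -0.04 to 0.04 at 18 mg/kg, -0.04 to 0.03 for the mean response, -0.12 to -0.04 for A-CREB after saline, -0.07 to 0 for the mean genotype difference, -0.06 to 0.05 for the difference of responses and -0.08 to 0.08 between doses. Differences followed by their interval were scored only as the same or moved, and a reversal of sign was scored only for the others. Among the others, reversed were Rab3d at 18 mg/kg (0.06 without those sets), Syt4 at 18 mg/kg (-0.15 without A-CREB 18 mg/kg array 2, range over single arrays left out -0.15 to 0.99) and Vamp4 between genotypes (-0.06 with the mean of probe sets). The cause was not tested. Of 1166 recomputed differences of named genes these 3 were scored as reversed, 35 lost a call, all in the blocked fit, and 4 gained one. Another 71, among those followed by their interval, moved. Differences of that kind could change sign with a single array left out. That of Syn1 ran from -0.51 to 0.08 after kainate at 14 mg/kg and from -0.42 to 0.17 between genotypes.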
